A study of Mus musculus with 15 samples.

Results

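Liver expression in mice without Jnk2 was compared with that of floxed controls on 6 of the 15 arrays of the series, the 3 labelled Jnk2 KO and the 3 labelled NEMO f/f, over all 19938 genes with a probe set of their own. Each array held total RNA from the whole liver of 1 mouse, and the labels give each mouse its own number, so the p-values below measure the spread between mice. The Jnk2 KO mice were global Jnk2-/-, with both copies inactive from the germ line in every cell type. The NEMO f/f mice were wild type apart from loxP sites in the NEMO gene, with no Cre named for them. The labels do not say whether the Jnk2 KO mice carried those sites too. All 6 were labelled male, 8 wk old and C57BL/6, with free access to chow and no treatment, and the labels do not say whether they were littermates. The other 9 arrays entered the fit for the estimate of the spread. They came from global Jnk1-/- mice (Jnk1 KO) and from mice that lacked NEMO in hepatocytes through an albumin-driven Cre (Alb-cre) and also lacked Jnk1 or Jnk2 globally (NEMO/Jnk1 DKO and NEMO/Jnk2 DKO), likewise labelled male, 8 wk old and C57BL/6.

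JNK2, encoded by Mapk9, is a kinase that is switched on by stress, inflammatory cytokines and toxic bile acids, when an upstream kinase phosphorylates it. Active JNK phosphorylates c-Jun and other members of the transcription factor AP-1, and it also acts on proteins of the cell death machinery. In liver it is expressed beside JNK1, encoded by Mapk8, and the pair share many substrates, while NEMO, encoded by Ikbkg, is needed for the parallel activation of NF-kB.

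Values are log2 expression levels, so that a difference of 1 is a doubling. Each difference is Jnk2 KO minus NEMO f/f, with its standard error (SE) from limma, and adjusted p-values are Benjamini-Hochberg values over all genes. A gene was called, and is said to have risen or fallen, at an adjusted p under 0.05. Values of 3 arrays are listed as replicates 1, 2 and 3. In bulk liver, fewer cells of a type and less RNA per cell cannot be told apart.

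Mapk9 was read at 7.41, 7.65 and 7.42 in NEMO f/f and at 3.28, 2.88 and 2.60 in Jnk2 KO. All 3 Jnk2 KO arrays were low, and Mapk9 fell by 4.57 (SE 0.16, limma adjusted p = 1.74e-09). Mapk8 read 6.98, 7.02 and 7.03 in NEMO f/f and 6.85, 6.75 and 6.58 in Jnk2 KO, a difference of -0.28 (SE 0.14, limma adjusted p = 0.461) without overlap between the groups. Of the 21 measured genes of the JNK pathway list, Mapk9 was the 1 called; 14 lay below 0 and 7 above, and the median difference was -0.04, as it was over all genes.

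The array labelled Jnk2 KO replicate 3 stood apart from the other arrays of its group in genes that mark the NEMO-deficient livers of the series. It was singled out beforehand by its Ly6d, Mmp12 and Ikbkg values, so these describe the array and are no separate support. Ly6d, which encodes a small cell surface protein, read 5.35 and 4.89 in Jnk2 KO replicates 1 and 2 and 9.70 in replicate 3, against 4.67 to 5.06 in NEMO f/f and 7.88 to 10.48 in NEMO/Jnk2 DKO. Mmp12, the macrophage elastase, read 3.71 and 3.69 against 8.21 in replicate 3, and Ikbkg read 7.23 and 7.03 against 6.24. In each case replicate 3 lay outside the range of NEMO f/f (3.83 to 4.88 for Mmp12 and 7.15 to 7.41 for Ikbkg) on the side of NEMO/Jnk2 DKO (7.54 to 8.43 and 6.31 to 6.48). The mean level of 18 markers of monocytes and macrophages was 6.89 in replicate 3, against 5.28 and 5.25 in replicates 1 and 2. It was 5.09 to 5.28 in NEMO f/f and 6.31 to 6.69 in NEMO/Jnk2 DKO, and Mmp12 is 1 of these markers. That of 15 markers of stellate cells and myofibroblasts was 7.84 against 6.23 and 6.03, with 6.25 to 6.41 in NEMO f/f and 7.28 to 7.41 in NEMO/Jnk2 DKO. The mean of 12 hepatocyte markers lay between 12.45 and 12.60 in all 15 arrays, and Alb between 13.04 and 13.21 in the 6 compared. The array labelled Jnk1 KO replicate 1, one of the 3 with a female pattern of Xist, was also high in these genes, with Ly6d at 10.12, Mmp12 at 8.66 and marker means of 6.61 for macrophages and 7.73 for stellate cells. It entered the fit for the spread, and Jnk1 KO values below include it. The results are therefore given as labelled and, where that changes them, also without Jnk2 KO replicate 3, where the comparison is 2 arrays against 3.

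**Figure D1:**
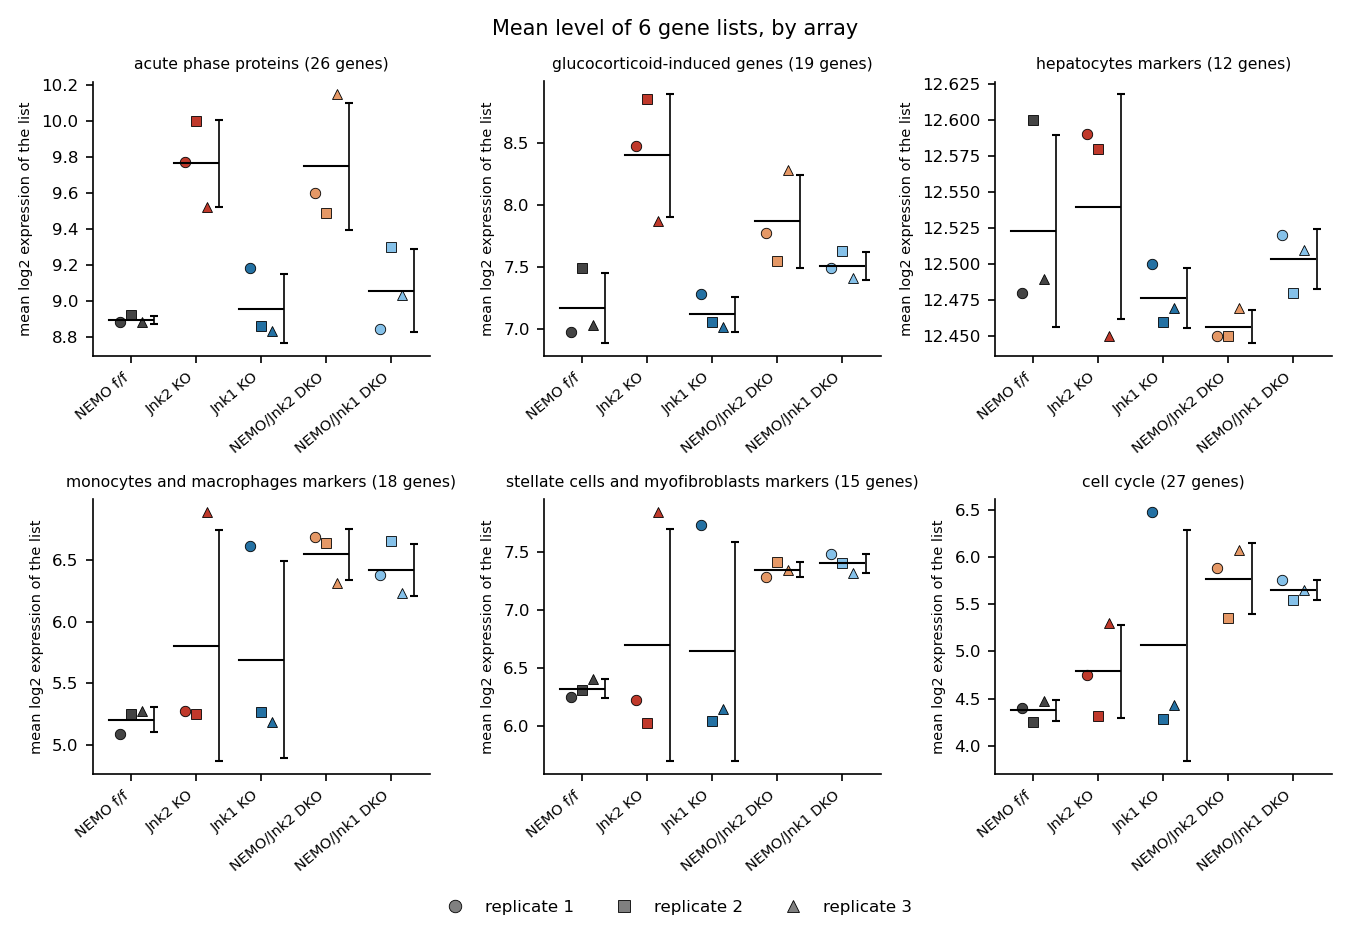
Mean log2 expression of 6 gene lists (vertical axes, each panel with its own range) in every array of the 5 groups (horizontal axes); points are arrays with a symbol per replicate number, horizontal lines are group means and bars are 1 SD (n = 3). Macrophage and stellate cell markers were high in Jnk2 KO replicate 3 alone of its group, while acute phase and glucocorticoid-induced genes were above all NEMO f/f arrays in all 3 Jnk2 KO arrays and lowest of the 3 in replicate 3.

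As labelled, 82 of the 19938 genes were called (0.411%). Of these 33 rose (0.166% of all genes) and 49 fell (0.246%), and 2416 genes had an unadjusted p under 0.05. The arrays of both groups did not overlap for any of the 82, against 17% of all genes. More than 2-fold changes made up 16 of the rises and 12 of the falls; the median called difference was 0.99 upward and -0.74 downward, and the smallest were 0.48 and -0.44. Without Jnk2 KO replicate 3, 121 genes were called (0.607%), 70 higher (0.351%) and 51 lower (0.256%). Both settings shared 58 genes, 24 were called only as labelled and 63 only without replicate 3, 44 of these higher. All 145 genes called in either setting had the same sign in both. The size of the count depended on single arrays: it was 57 without Jnk2 KO replicate 1, 24 without replicate 2, and 16, 31 and 26 without NEMO f/f replicates 1, 2 and 3. A total of 13 genes was called whichever of the 6 arrays was left out: Mapk9, Gdpd3, BC018473, Abcb1b, Abhd1, Atp11a, Steap4, Pik3c2g, Clec2h, Sgk2, Fam89a, Gsap and Mmd. Of 30 named genes called as labelled, 18 lost their call in at least 1 of these settings, and Mt2, Csad, Sugct, Fga, Cebpd, Cd59a, Etnppl, Grb7 and Bid kept it in 1 of 6. Pfkfb3, Saa2, Kcnk10 and Akr1c19 lost their call in more than 1 of these settings.

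Of the genes called whichever array was left out, Gdpd3, an enzyme that cleaves lysophospholipids, read 3.33, 3.72 and 3.70 in NEMO f/f and 6.39, 7.06 and 7.96 in Jnk2 KO. It was low in every control and high in every knockout, 11.7-fold higher as labelled (log2 difference 3.55, SE 0.27, limma adjusted p = 3.45e-05) and 8.81-fold without replicate 3. Abhd1, an alpha/beta-hydrolase, read 4.98, 5.74 and 5.29 in NEMO f/f and 7.69, 8.33 and 7.25 in Jnk2 KO, and rose by 2.42 (SE 0.23, limma adjusted p = 0.000265). Both genes stood at the control level in Jnk1 KO, at 3.22 to 3.44 for Gdpd3 and 5.16 to 5.37 for Abhd1.

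Abcb1b, which encodes the multidrug efflux pump P-glycoprotein, read 3.79, 3.32 and 4.01 in NEMO f/f and 6.73, 6.21 and 7.33 in Jnk2 KO. The groups were far apart, with a rise of 3.05 (SE 0.34, limma adjusted p = 0.00128). Atp11a, a flippase that moves phospholipids to the inner leaflet of the plasma membrane, read 5.26, 5.02 and 5.21 against 7.47, 7.06 and 7.14. It rose by 2.06 (SE 0.19, limma adjusted p = 0.000265), and leaving out replicate 3 left the difference at 2.10. Of the 6 measured drug efflux pumps Abcb1b was the only one called, in either setting.

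Pik3c2g, a class II phosphoinositide kinase found in liver, read 5.43, 5.86 and 5.29 in NEMO f/f and 7.31, 6.95 and 6.49 in Jnk2 KO, a rise of 1.39 (SE 0.18, limma adjusted p = 0.00436). BC018473 read 2.64, 2.81 and 2.80 against 6.68, 5.34 and 5.49. It rose by 3.09 (SE 0.37, limma adjusted p = 0.0023), with no overlap. Tmc5, of a family of ion channel proteins, was, like Gdpd3 and Abcb1b, highest in replicate 3, with 5.04, 4.46 and 6.82 against 2.92, 3.54 and 3.30. Its rise was 2.19 as labelled (SE 0.43, limma adjusted p = 0.0426) and 1.5 without replicate 3 (SE 0.24, limma adjusted p = 0.0144).

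Nrg4, a growth factor of the EGF family, rose by 2.12 (SE 0.42, limma adjusted p = 0.0482). Its call was kept in 1 of the 6 settings that left out an array, as were those of Ift57, a protein of the transport system of cilia (1.14, SE 0.21, limma adjusted p = 0.0323), and Xbp1, a transcription factor of the unfolded protein response (0.56, SE 0.11, limma adjusted p = 0.0482). Without replicate 3, Ift57 and Xbp1 were not called (limma adjusted p = 0.0546 and 0.0926). Xbp1 was the 1 called gene of 20 measured in the unfolded protein and stress response list, whose median was 0.08 as labelled and -0.07 without replicate 3. Tnfrsf21, a death receptor of the TNF receptor family, read 5.31, 5.26 and 5.30 in NEMO f/f and 5.93, 6.02 and 6.09 in Jnk2 KO; it was picked from the 82 after its values were seen. The arrays of each group lay close together, and the rise of 0.72 (SE 0.11, limma adjusted p = 0.0126) held without replicate 3 (limma adjusted p = 0.0262).

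**Figure D2:**
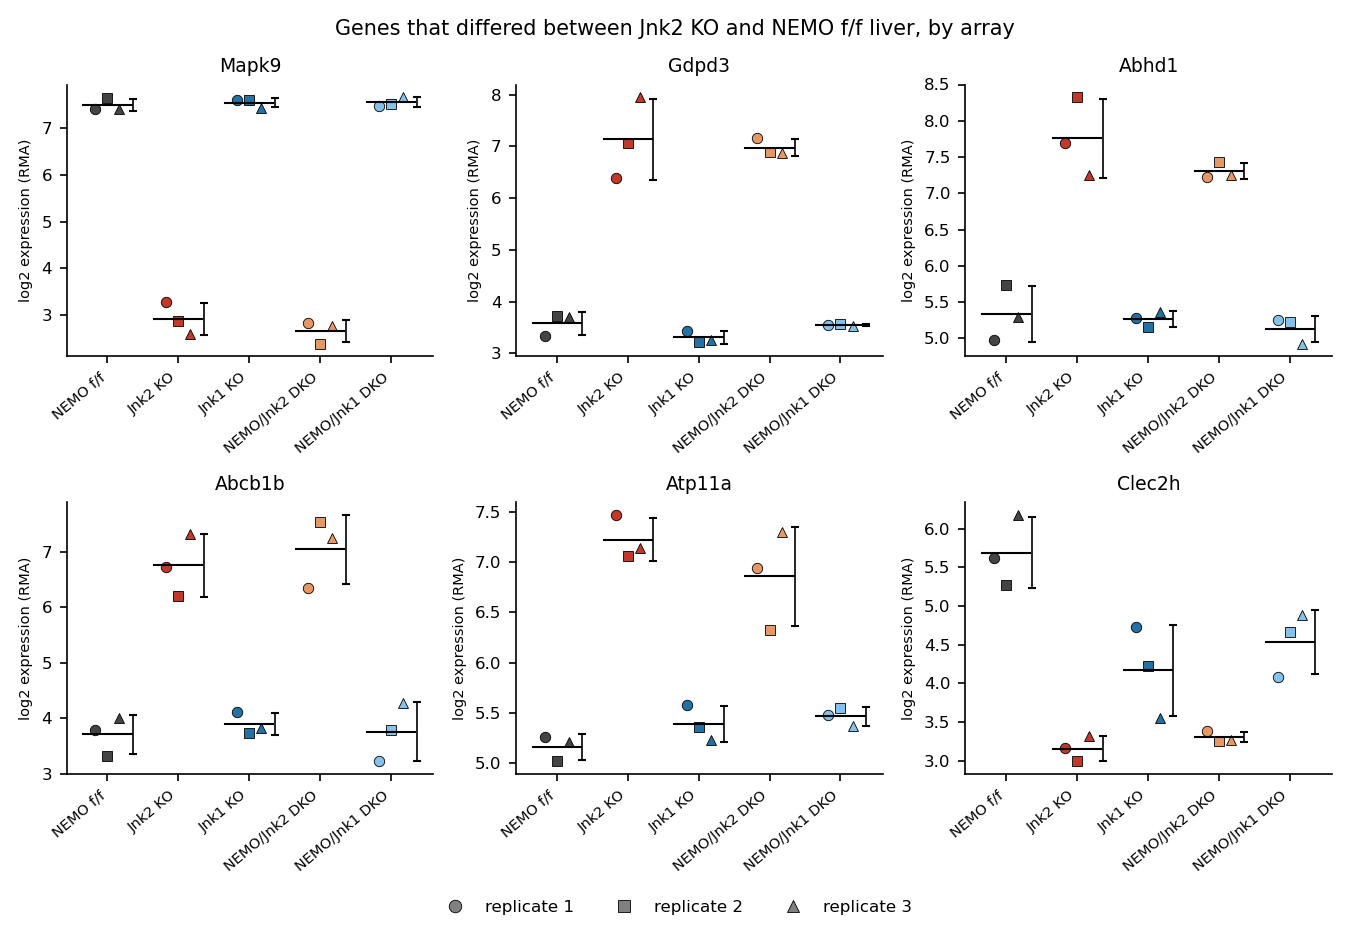
Log2 expression (vertical axes, each panel with its own range) of 6 genes in every array of the 5 groups; points are arrays with a symbol per replicate number, horizontal lines are group means and bars are 1 SD (n = 3). Mapk9 and Clec2h were low, and Gdpd3, Abhd1, Abcb1b and Atp11a high, in all 3 Jnk2 KO arrays, and the NEMO/Jnk2 DKO arrays were on the same side of NEMO f/f.

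Clec2h, a C-type lectin-like membrane protein, fell most after Mapk9 as labelled; without replicate 3 Sugct (-2.62) and Clec2h (-2.61) were alike in size. Clec2h read 5.62, 5.27 and 6.18 in NEMO f/f and 3.16, 2.99 and 3.32 in Jnk2 KO, a fall of 5.79-fold (log2 difference -2.53, SE 0.28, limma adjusted p = 0.00128). In Jnk1 KO it read 4.73, 4.22 and 3.55, between both groups. Sgk2, a serum- and glucocorticoid-regulated kinase relative, read 8.26, 8.76 and 8.29 against 7.28, 7.35 and 7.42. The 3 Jnk2 KO arrays lay close together, and Sgk2 fell by 1.09 (SE 0.15, limma adjusted p = 0.00856). Fam89a fell by 1.08 (SE 0.13, limma adjusted p = 0.00281), Gsap, which encodes gamma-secretase activating protein, by 1.05 (SE 0.14, limma adjusted p = 0.00436), and Mmd, a membrane protein of the progestin and adipoQ receptor family, by 0.63 (SE 0.09, limma adjusted p = 0.00856).

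Csad, which makes the taurine precursor hypotaurine from cysteine sulfinic acid, read 10.03, 10.26 and 10.18 in NEMO f/f and 7.75, 8.63 and 8.49 in Jnk2 KO. It fell 3.64-fold (log2 difference -1.87, SE 0.35, limma adjusted p = 0.0376); Jnk1 KO read 7.97, 8.79 and 9.67, all below NEMO f/f. Csad was the 1 called gene of 16 in the list of taurine, cysteine and methionine metabolism. Sugct, a mitochondrial enzyme that attaches coenzyme A to glutarate, read 7.77, 7.78 and 7.5 against 5.28, 4.84 and 6.38. The knockout array nearest the controls was replicate 3, and the fall was 2.18 as labelled (SE 0.42, limma adjusted p = 0.0416) and 2.62 without it (SE 0.40, limma adjusted p = 0.012). Etnppl, which breaks down phosphoethanolamine, read 9.43, 9.21 and 9.51 against 8.55, 8.17 and 7.91, and replicate 3 was the lowest. Its fall of 1.17 (SE 0.21, limma adjusted p = 0.0323) was not called without replicate 3 (-1.02, limma adjusted p = 0.0688), and it was the 1 called gene of 17 in the list of urea cycle and amino acid catabolism. Akr1c19, an aldo-keto reductase, fell by 0.99 (SE 0.17, limma adjusted p = 0.0235) and Oxsm, an enzyme of mitochondrial fatty acid synthesis, by 0.95 (SE 0.14, limma adjusted p = 0.0107).

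Genes for surface and signalling proteins fell as well. Cd59a, which blocks the membrane attack complex of complement, read 8.20, 8.87 and 8.26 in NEMO f/f and 7.41, 7.19 and 7.51 in Jnk2 KO. It fell by 1.07 (SE 0.20, limma adjusted p = 0.0384), the 1 called gene of 25 in the complement and coagulation list. Slc39a2, a zinc importer, fell by 0.98 (SE 0.18, limma adjusted p = 0.0376) but was not called in any of the 6 settings that left out an array. Kcnk10, a potassium channel, fell by 1.09 (SE 0.18, limma adjusted p = 0.0194), Tiam2, an activator of Rac, by 1.04 (SE 0.16, limma adjusted p = 0.0107), and Grb7, an adaptor of receptor tyrosine kinases, by 1.02 (SE 0.17, limma adjusted p = 0.0215). Kcnk10 read 3.44, 3.67 and 4.21 in Jnk1 KO and Tiam2 3.91, 4.24 and 4.42. These Jnk1 KO values were below all NEMO f/f arrays (4.46 to 4.77 and 4.58 to 4.90); both comparisons use the same NEMO f/f arrays.

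Mt2, a metallothionein, and the acute phase genes Saa2, Steap4 and Fga were among the genes that rose as labelled. Metallothioneins bind zinc and other metals and are induced by metals, glucocorticoids and interleukin-6. Acute phase proteins are plasma proteins that the liver makes in larger amounts in inflammation. The sequence from 250 bases before to 50 bases after the start of the genes in the RefSeq promoter table (build GRCm38.p6) is shown for Mt2, Fga and Steap4, which were called in both settings, and for Mt1, called only without replicate 3. Mt1 and Mt2 carry matches to a motif of the response to metals, and Fga and Steap4 to motifs of the response to inflammation. No motif of the response to glucocorticoids was searched. The windows shown are on the + strand, at chr8:94178839-94179138 for Mt1, chr8:94172368-94172667 for Mt2, chr3:83025903-83026202 for Fga and chr5:7960222-7960521 for Steap4. Capitals mark TGCNCNC, the core of the metal response element, in Mt1 and Mt2, and TTCNNNGAA (a STAT site) and TTGCNNCAA (a C/EBP site) in Fga and Steap4, each searched on both strands.
Mt1: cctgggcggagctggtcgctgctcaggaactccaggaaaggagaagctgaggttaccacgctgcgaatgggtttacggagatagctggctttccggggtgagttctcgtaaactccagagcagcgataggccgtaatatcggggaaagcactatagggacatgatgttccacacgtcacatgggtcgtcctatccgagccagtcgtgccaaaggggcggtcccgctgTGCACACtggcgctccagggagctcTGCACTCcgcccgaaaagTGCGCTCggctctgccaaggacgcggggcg
Mt2: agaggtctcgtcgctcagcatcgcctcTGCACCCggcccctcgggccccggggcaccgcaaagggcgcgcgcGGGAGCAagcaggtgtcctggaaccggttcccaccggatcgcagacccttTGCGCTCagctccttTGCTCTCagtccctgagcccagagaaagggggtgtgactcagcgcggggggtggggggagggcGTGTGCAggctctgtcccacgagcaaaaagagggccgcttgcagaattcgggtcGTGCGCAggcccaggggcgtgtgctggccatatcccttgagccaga
Fga: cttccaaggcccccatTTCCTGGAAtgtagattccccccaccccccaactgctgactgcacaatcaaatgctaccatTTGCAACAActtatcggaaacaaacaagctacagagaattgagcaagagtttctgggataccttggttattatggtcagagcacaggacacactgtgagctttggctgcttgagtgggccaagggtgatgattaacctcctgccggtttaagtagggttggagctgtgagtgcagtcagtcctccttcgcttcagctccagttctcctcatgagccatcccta
Steap4: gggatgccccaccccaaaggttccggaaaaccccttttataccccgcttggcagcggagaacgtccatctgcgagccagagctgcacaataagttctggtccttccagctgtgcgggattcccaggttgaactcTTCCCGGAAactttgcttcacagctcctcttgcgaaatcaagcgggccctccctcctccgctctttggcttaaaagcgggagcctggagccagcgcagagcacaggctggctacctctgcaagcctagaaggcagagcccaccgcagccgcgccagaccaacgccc

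The window of Mt1 held TGCNCNC 3 times and that of Mt2 held it 6 times, counting both strands. The motif is short, and 51.0% of the 32851 promoters in the table held it at least once, but 7.1% held it 3 times or more and 0.225% 6 times or more. TGCNCNC was also in the windows of Saa1 and Orm3 (2 each) and of Saa2 and Fga (1 each), where it is not marked. Mt2 also held TGANTCA, an AP-1 site, once, apart from the capitals, as did Orm3. This motif was held by 7.81% of promoters. Fga held TTCNNNGAA and TTGCNNCAA once each, and Steap4 TTCNNNGAA once, against 8.3% and 2.08% of promoters that held these motifs. The windows of Saa1, Saa2 and Orm3 held neither of the latter motifs, and the NF-kB motif that was searched, held by 1.2% of promoters, was in none of the 7 windows. These are matches of letters in a window of 300 bases and not measured binding.

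Mt2 read 6.67, 8.10 and 6.34 in NEMO f/f and 12.12, 12.44 and 10.18 in Jnk2 KO. All Jnk2 KO arrays were above all controls and replicate 3 was the lowest of them; the rise was 23.3-fold as labelled (log2 difference 4.54, SE 0.88, limma adjusted p = 0.0426) and 37.9-fold without replicate 3 (5.24, SE 0.92, limma adjusted p = 0.0228). Mt1 read 6.98, 8.88 and 7.47 against 11.78, 12.37 and 9.95. Its difference of 3.59 was not called as labelled (SE 0.78, limma adjusted p = 0.0722) and was called without replicate 3 at 4.30 (SE 0.78, limma adjusted p = 0.0248). Slc39a14, a zinc and iron importer of the hepatocyte that takes part in the acute phase response, read 8.68, 8.96 and 8.68 against 10.04, 10.36 and 9.07. It was called only without replicate 3 (1.43, SE 0.19, limma adjusted p = 0.00546; as labelled 1.05, limma adjusted p = 0.11). The other 6 of 9 measured genes of the metallothionein and zinc transport list were not called in either setting, and its median was 0.01 as labelled and 0.06 without replicate 3.

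Among 26 measured genes of the acute phase list, 3 rose as labelled and 5 without replicate 3, and none fell. The list also holds genes such as Steap4 and Socs3, whose products are not plasma proteins. The median difference was 0.59 as labelled, with 23 of 26 above 0, and 0.69 without replicate 3, with 24 of 26 above 0, against -0.04 over all genes in both settings. Saa2, a serum amyloid A protein, read 8.14, 7.34 and 7.57 in NEMO f/f and 10.33, 11.62 and 10.41 in Jnk2 KO, and rose by 3.10 (SE 0.50, limma adjusted p = 0.0192). Its neighbour Saa1 read 6.69, 6.54 and 6.80 against 9.25, 10.41 and 8.65 and was called only without replicate 3 (3.15, SE 0.60, limma adjusted p = 0.0306). The pair are close copies, so probes of one may also have bound transcripts of the other, and their separate values are uncertain.

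Steap4, a metalloreductase, read 8.98, 9.04 and 8.82 in NEMO f/f and 10.88, 11.38 and 10.31 in Jnk2 KO. It was the acute phase list's firmest member, called whichever of the 6 arrays was left out (1.91, SE 0.22, limma adjusted p = 0.00186). Fga, a fibrinogen chain, read 10.23, 10.37 and 10.29 against 11.37, 11.58 and 11.11 and rose 2.08-fold (1.06, SE 0.17, limma adjusted p = 0.0194). Orm3, an orosomucoid, was called only without replicate 3 (1.63, SE 0.31, limma adjusted p = 0.0306). In Jnk1 KO, the mean of the acute phase list was 9.18, 8.86 and 8.83, against 8.88 to 8.92 in NEMO f/f and 9.52 or more in each Jnk2 KO array. In Jnk2 KO replicates 1 and 2 the macrophage markers were at 5.28 and 5.25 and the neutrophil markers at 3.47 and 3.63, against 5.09 to 5.28 and 3.17 to 3.38 in NEMO f/f.

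Genes that glucocorticoids induce had the highest median among the 47 lists, 0.90 as labelled, with 17 of 19 members above 0, and 1.06 without replicate 3. This list shares Mt1 and Mt2 with the metallothionein list and Lcn2 with the acute phase list. As labelled, 2 of its members were called, Mt2 and Cebpd, a transcription factor of the acute phase response, which read 3.72, 4.04 and 3.87 in NEMO f/f and 4.98, 4.89 and 5.32 in Jnk2 KO (1.19, SE 0.20, limma adjusted p = 0.0232). Without replicate 3 there were 5. Fkbp5, which binds the glucocorticoid receptor complex, read 6.78, 7.05 and 7.12 against 8.06, 9.31 and 7.21. Replicate 3 was near the controls, and the difference was 1.70 without it (SE 0.31, limma adjusted p = 0.0243) and 1.21 with it (limma adjusted p = 0.198). Ddit4, an inhibitor of mTORC1, read 5.93, 6.12 and 5.61 against 8.00, 7.41 and 6.34 and was called only without replicate 3 (1.82, SE 0.32, limma adjusted p = 0.0228).

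**Figure D3:**
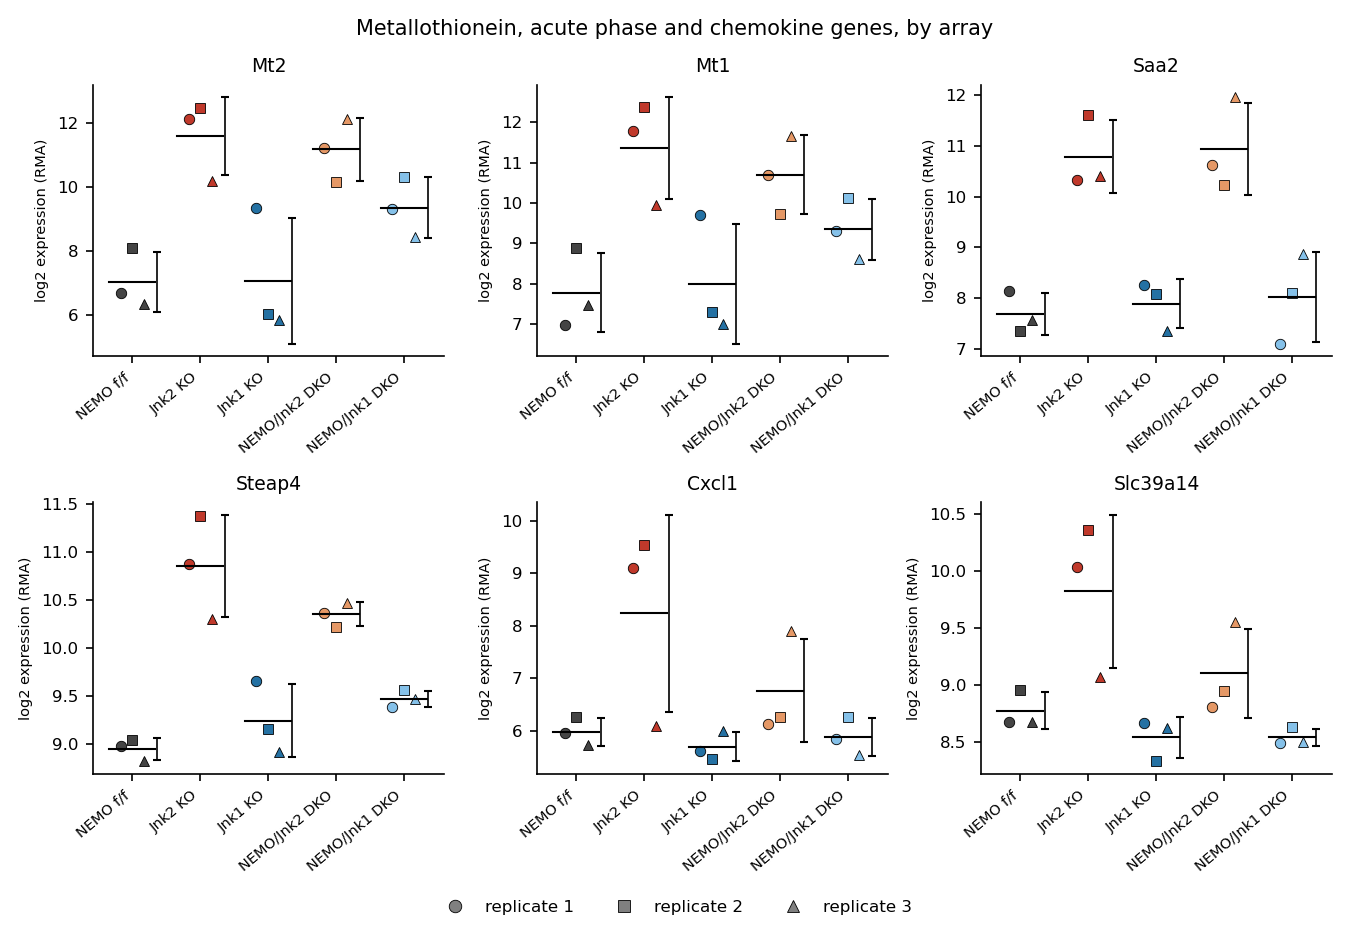
Log2 expression (vertical axes, each panel with its own range) of 6 metallothionein, acute phase, zinc transport and chemokine genes in every array of the 5 groups; points are arrays with a symbol per replicate number, horizontal lines are group means and bars are 1 SD (n = 3). In Mt2, Mt1, Steap4, Cxcl1 and Slc39a14, Jnk2 KO replicates 1 and 2 were high and replicate 3 was lower, and for Cxcl1 it read 6.09, within the NEMO f/f range.

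Among the genes called only without replicate 3 was Cxcl1, a chemokine that attracts neutrophils. It read 5.96, 6.26 and 5.72 in NEMO f/f and 9.10, 9.53 and 6.09 in Jnk2 KO. It was 10.1-fold higher in replicates 1 and 2 (3.34, SE 0.42, limma adjusted p = 0.00338) and not called as labelled (2.26, SE 0.68, limma adjusted p = 0.189). Slc37a1, a sugar phosphate transporter, read 5.53, 5.72 and 5.30 against 7.09, 7.39 and 5.44 (without replicate 3 1.72, SE 0.16, limma adjusted p = 0.000207). H1f2, a linker histone, went the other way, at 7.34, 7.34 and 7.19 against 6.26, 6.04 and 7.35 (without replicate 3 -1.14, SE 0.12, limma adjusted p = 0.00099). In these 3 genes the Jnk2 KO and NEMO f/f arrays overlapped through replicate 3. Lower without replicate 3 were also Tsc22d1 (-1.52, SE 0.26, limma adjusted p = 0.0226), a leucine zipper protein, Gas1 (-1.13, SE 0.17, limma adjusted p = 0.0127), a membrane protein first found in growth arrest, and Mblac2 (-0.96, SE 0.18, limma adjusted p = 0.0315).

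Some genes of inflammatory and death signalling were also called without replicate 3. Tnfrsf1a, the main receptor for TNF, read 8.12, 8.25 and 8.11 in NEMO f/f and 8.82, 9.11 and 8.60 in Jnk2 KO (0.80, SE 0.15, limma adjusted p = 0.0243; as labelled 0.68, limma adjusted p = 0.0585). Tnfrsf1b, the other TNF receptor, was at 0.64 (SE 0.11, limma adjusted p = 0.0235; as labelled 0.40, limma adjusted p = 0.353). Map3k5, the stress kinase ASK1 upstream of JNK, read 7.19, 7.39 and 7.32 against 8.00, 8.98 and 7.58 (1.19, SE 0.22, limma adjusted p = 0.0248; as labelled 0.89, limma adjusted p = 0.153). All 3 had their lowest Jnk2 KO value in replicate 3, which follows in part from their being called only without it. Bid, which links death receptors to mitochondria, fell as labelled (-0.79, SE 0.15, limma adjusted p = 0.0426) and without replicate 3 (-0.88, SE 0.17, limma adjusted p = 0.0298). Of the 26 measured genes of apoptosis and necroptosis it was the 1 called as labelled, and the list's median was 0.05. Without replicate 3, 2 of the 26 were called higher and 1 lower. In that setting 10 lay above 0 and 16 below, and the median was -0.04.

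AP-1 and immediate early genes, through which JNK is known to act, gave no call among 26 members in either setting. Their median was 0.23 as labelled and 0.07 without replicate 3. Dusp1, a phosphatase that inactivates JNK and p38, read 8.25, 8.89 and 7.64 in NEMO f/f and 9.64, 10.21 and 9.51 in Jnk2 KO. The groups did not overlap, and the difference of 1.53 (SE 0.31) narrowly missed the threshold as labelled (limma adjusted p = 0.055) and without replicate 3 (1.66, limma adjusted p = 0.0537). Btg2, an early growth arrest gene, stood at 1.66 (SE 0.35, limma adjusted p = 0.0604). None of the 16 genes of NF-kB subunits and the IKK complex was called in either setting, and their median was 0.18 and 0.15. Of 22 interferon-stimulated genes all lay above 0 as labelled and 20 without replicate 3, with medians of 0.36 and 0.31. Of these, Mx2, an antiviral GTPase, was the 1 called, without replicate 3 (0.99, SE 0.18, limma adjusted p = 0.0228; as labelled 0.84, limma adjusted p = 0.0534). Of 20 chemokines none was called as labelled, and without replicate 3 Cxcl1 was higher and Cxcl12, which retains leukocytes, lower (-0.84, SE 0.17, limma adjusted p = 0.0422).

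Lists of hepatocyte metabolism gave few calls. None of the 14 genes of bile acid synthesis was called in either setting; all 14 lay below 0 as labelled, with a median of -0.36, and 12 without replicate 3, with a median of -0.26. Hsd3b7, an enzyme early in that pathway, read 10.53, 10.68 and 10.56 in NEMO f/f and 10.34, 10.19 and 10.09 in Jnk2 KO (-0.38, SE 0.10, limma adjusted p = 0.112). Nr0b2, the bile acid-induced repressor SHP, was at -0.88 (SE 0.28, limma adjusted p = 0.216). None of 16 transporters of bile acids and organic anions was called, and their median was -0.28 as labelled and -0.12 without replicate 3. Slco1a4, an uptake transporter, read 9.03, 9.14 and 8.82 against 7.77, 6.86 and 5.71, a difference of -2.22 (SE 0.54, limma adjusted p = 0.0969) with replicate 3 lowest. Without that array it was -1.68 (limma adjusted p = 0.216). None of 22 drug metabolism genes was called in either setting, with medians of -0.49 and -0.38; Ces1d, a carboxylesterase, was nearest (-0.70, SE 0.14, limma adjusted p = 0.0519).

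In lipid metabolism, Gdpd3 was the 1 called gene of 21 in the lipid droplet and storage list as labelled, and Plin4, a lipid droplet coat protein, joined it without replicate 3 (0.93, SE 0.15, limma adjusted p = 0.0134). None of 17 genes of fatty acid synthesis was called, with medians of 0.20 and 0.30. Acaca, which makes malonyl-CoA, read 8.50, 8.89 and 8.22 against 9.26, 9.62 and 9.39, without overlap (0.89, SE 0.18, limma adjusted p = 0.0583). Of 18 genes of cholesterol synthesis and uptake, none was called as labelled, and the median was -0.20. Without replicate 3 the median was -0.30 and Insig1, which holds back the sterol sensor SCAP, was lower (-0.90, SE 0.16, limma adjusted p = 0.0248). In the glucose and fasting list of 21, Pfkfb3, which makes the glycolysis activator fructose-2,6-bisphosphate, was called as labelled and without replicate 3. It also kept its call without NEMO f/f replicate 2 and lost it without any other single array of the comparison. It read 5.13, 6.32 and 5.54 in NEMO f/f and 7.44, 8.11 and 6.65 in Jnk2 KO (1.74, SE 0.31, limma adjusted p = 0.0309). None of 20 clock genes was called; Nr1d1, the clock repressor REV-ERB alpha, read 8.40, 8.52 and 8.88 against 6.44, 7.18 and 5.40 (-2.26, SE 0.63, limma adjusted p = 0.146), and Tef was at -0.90 (SE 0.27, limma adjusted p = 0.175). The labels give no time of day, and its part in these results was not tested.

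**Figure D4:**
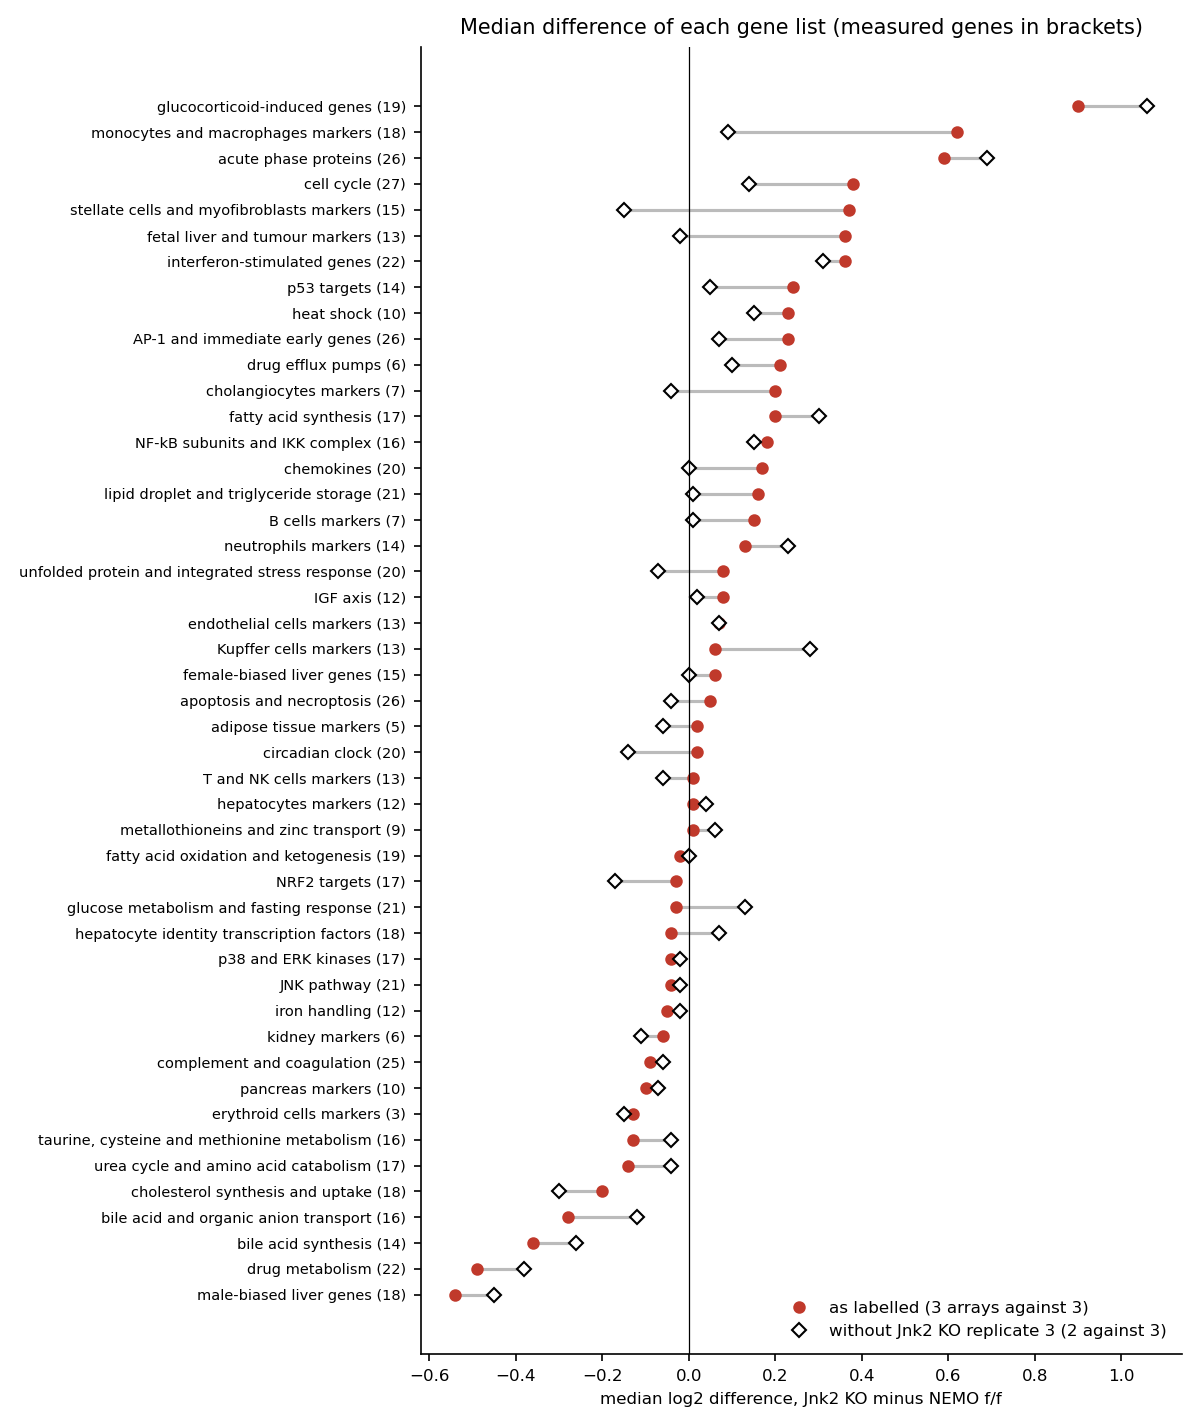
Median log2 difference, Jnk2 KO minus NEMO f/f (horizontal axis), of the measured genes of each of 47 lists (vertical axis, number of genes in brackets), as labelled (filled circles) and without Jnk2 KO replicate 3 (open diamonds). Glucocorticoid-induced genes (0.90 and 1.06) and acute phase proteins (0.59 and 0.69) were high in both settings, while macrophage markers went from 0.62 to 0.09 and stellate cell markers from 0.37 to -0.15.

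The medians of some marker lists moved with the doubted array and those of others did not. Of 18 macrophage markers none was called in either setting; all 18 lay above 0 as labelled, with a median of 0.62, and 12 without replicate 3, with a median of 0.09. Gpnmb, found on lipid-laden macrophages, read 3.62 and 3.82 in Jnk2 KO replicates 1 and 2, as in NEMO f/f (3.65 to 3.86), and 8.59 in replicate 3. For stellate cell markers the median was 0.37 as labelled and -0.15 without replicate 3. For 27 cell cycle genes it was 0.38 and 0.14, and for 13 markers of fetal liver and tumours 0.36 and -0.02, with no call. The macrophage list holds Mmp12 and the fetal liver list Ly6d, by which the array was singled out. Markers of Kupffer cells, the resident macrophages, were at 0.06 and 0.28 (13 genes), neutrophil markers at 0.13 and 0.23 (14), endothelial markers at 0.07 in both (13), and T and NK cell markers at 0.01 and -0.06 (13), with no call. Among the 33 genes that rose, replicate 3 was the least raised of the 3 Jnk2 KO arrays in 16 and the most raised in 6. Among the 49 that fell, it was the least lowered in 18 and the most lowered in 15.

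The same Jnk2 difference can be read on 6 other arrays, between NEMO/Jnk2 DKO and NEMO/Jnk1 DKO, all of which lacked NEMO in hepatocytes. These groups also differ in Jnk1, and 2 of the 3 NEMO/Jnk1 DKO arrays carried the female pattern of Xist despite their male labels, so a fit with a term for that pattern is given too. In that comparison 21 genes of 19938 were called (0.105%), 15 with the sex term (0.0752%). Of the 82 genes called in Jnk2 KO, 9 were among the 21: Mapk9, Gdpd3, Abcb1b, Abhd1, Tmc5, Saa2, Atp11a, Ift57 and Etnppl. With the sex term 7 were called. The sign was the same for 77 of the 82 (93.9%), 32 of the 33 that rose and 45 of the 49 that fell, against 54.4% of all genes. All 3 NEMO/Jnk2 DKO arrays lay above all NEMO/Jnk1 DKO arrays for 14 of the 33 (5.51% of all genes) and below them for 24 of the 49 (7.12% of all genes). These 6 arrays also entered the estimate of the spread with which the 82 genes were called. Genes with a small spread in them were thereby favoured, so the shares are not independent of the choice of the 82.

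Gdpd3 read 7.17, 6.89 and 6.88 in NEMO/Jnk2 DKO and 3.54, 3.57 and 3.53 in NEMO/Jnk1 DKO, a difference of 3.43 (SE 0.27, limma adjusted p = 5.31e-05; with the sex term 3.51, limma adjusted p = 0.000916). Abcb1b differed there by 3.29 (SE 0.34, limma adjusted p = 0.000792) and Abhd1 by 2.17 (SE 0.23, limma adjusted p = 0.000792). These differences were of the size seen in Jnk2 KO. Tmc5 read 6.73, 6.85 and 6.79 in NEMO/Jnk2 DKO, near the 6.82 of Jnk2 KO replicate 3. BC018473 read 2.61, 2.78 and 4.23 in NEMO/Jnk2 DKO against 2.66 to 2.77 in NEMO/Jnk1 DKO (0.48, SE 0.37, limma adjusted p = 0.999). Pfkfb3 differed by 0.06 (SE 0.31, limma adjusted p = 0.999), Cebpd by 0.06 (SE 0.20, limma adjusted p = 0.999) and Csad by 0.03 (SE 0.35, limma adjusted p = 0.999), against 1.74, 1.19 and -1.87 in Jnk2 KO. Whether the effect differed between the NEMO-intact and NEMO-deficient livers was not tested.

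**Figure D5:**
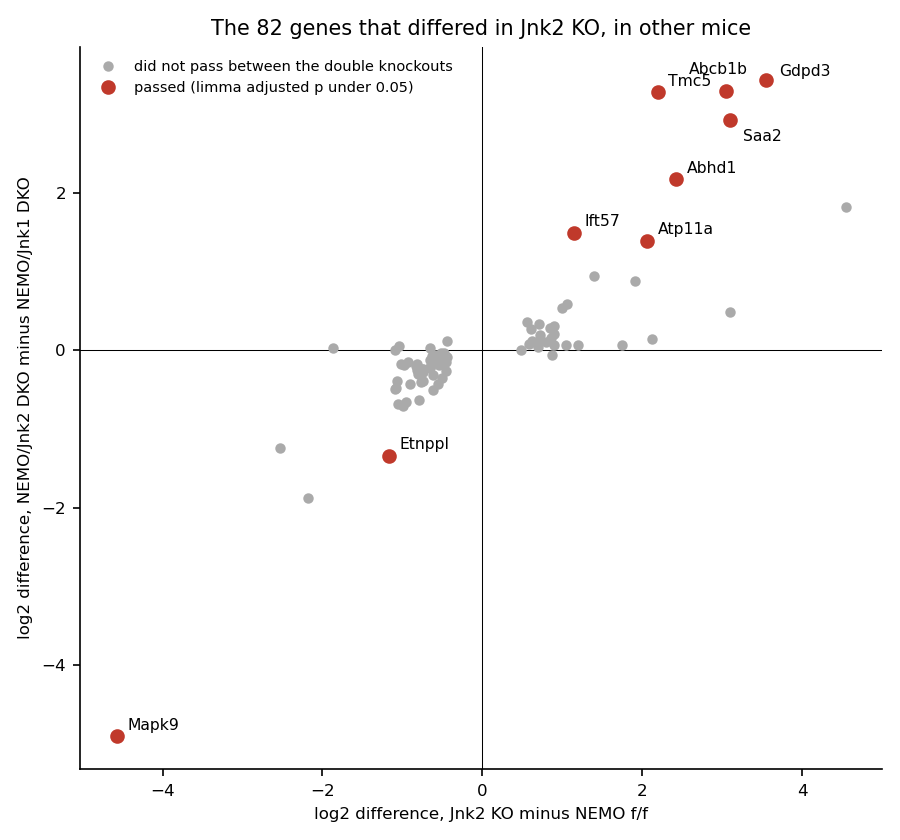
Log2 difference of the 82 genes called in Jnk2 KO against NEMO f/f (horizontal axis) and of the same genes between NEMO/Jnk2 DKO and NEMO/Jnk1 DKO (vertical axis); each point is a gene, and red points with names were called in the second comparison as well. Of the 82, 77 have the same sign in both comparisons and 9 were called in both.

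Mapk9 lies on chromosome 11, and a null allele can carry neighbouring sequence from the strain in which it was made. Of the 226 tested genes within 10 Mb of Mapk9, Mapk9 not counted, none was called with limma in either setting. As labelled, 27 of the 226 had an unadjusted limma p under 0.05, against 2416 of all 19938 genes. On the whole chromosome, with Mapk9 itself counted, 7 of 1563 genes were called (0.448%) as labelled, against 0.411% of all genes. Without Jnk2 KO replicate 3 it was 14 (0.896%), Mapk9 again counted, against 0.607%. Within 20 Mb, Mapk9 not counted, 1 of 427 genes was called in that setting and none as labelled.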

How the data were processed

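The authors deposited log2 expression values of 35556 probe sets of an Affymetrix whole-transcript array, made with RMA (no version given), according to the submitters' processing notes; the values' range points to a logarithm of base 2. RMA puts all arrays on 1 distribution, which hides a shift of all genes. Per the labels' protocols, only RNA with an integrity number above the set minimum was hybridised. Probe sets with 1 symbol in the platform's gene table (21789) were used; of several for a gene (999 genes), the one with the highest mean stood for it, which left 19938 genes. Medians of the arrays lay between 4.26 and 4.38, correlations between 0.976 and 0.991, and the number of arrays limits the precision. limma 3.58.1 (R 4.3.3; lmFit and eBayes, 1 mean per group) was fitted to all 15 arrays with Benjamini-Hochberg adjustment, and tested on simulated data.

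The members and the 47 gene lists, of whose symbols 710 of 797 were measured, were chosen with earlier results of these data known. Genes named are Mapk8, Mapk9, Ikbkg, Ly6d and Mmp12, the 15 highest and 15 lowest differences among called genes whose arrays do not overlap, in each setting, and per list up to 4 called members or the 2 with the lowest p; Gpnmb, Tnfrsf21 and genes listed by a count were added after their values were seen. Provisional models are not named. Alternatives were other fits, normalizations, filters and arrays left out; some for the setting without Jnk2 KO replicate 3 and for the double knockouts were added after seeing the data.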

Additional observations from a re-analysis of the deposited data

Results flagged for a closer look

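Outside the main measurement, 13767 probe sets with no or several gene symbols were tested apart, and 24 of them were called between Jnk2 KO and NEMO f/f (0.174%, limma adjusted p under 0.05). Without Jnk2 KO replicate 3, 13 of the 13767 were called, not all of them among the 24. Probe set 10508800, with no symbol, read 7.89, 8.47 and 8.63 in NEMO f/f and 12.23, 12.54 and 11.81 in Jnk2 KO (log2 difference 3.86, SE 0.31, limma adjusted p = 0.0001). It read 11.53 to 11.76 in NEMO/Jnk2 DKO and 9.07 to 10.59 in the 6 Jnk1-null arrays. Probe set 10573865 held the same values in every array, so the pair is 1 measurement. Probe sets 10510221 (3.56, SE 0.29, limma adjusted p = 0.0001) and 10551998 (2.97, SE 0.24, limma adjusted p = 0.0001) had the same order of groups, with the Jnk2-null arrays highest, the Jnk1-null arrays next and NEMO f/f lowest, without overlap.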

How the results depend on the processing

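The count of 82 genes ranged from 16 to 121 when 1 array was left out: 57, 24 and 121 without Jnk2 KO replicates 1, 2 and 3, and 16, 31 and 26 without NEMO f/f replicates 1, 2 and 3. It was 248 without both Jnk2 KO replicate 3 and Jnk1 KO replicate 1, 27 in a fit to only the arrays compared (108 there without Jnk2 KO replicate 3), 157 with a sex term and 161 without the 3 arrays of the female pattern. Under all other settings it lay between 55 and 116, within 1.5 times. The count of 121 without Jnk2 KO replicate 3 ranged from 21 to 248 with 1 more array left out, and it was 248 without Jnk1 KO replicate 1, 21 without Jnk2 KO replicate 2, and 40, 75 and 50 without NEMO f/f replicates 1, 2 and 3. The 9 genes shared with the double knockouts ranged from 5 to 8 with 1 array of theirs left out (5 without NEMO/Jnk1 DKO replicate 1). The cause was not tested. Of 814 values of 43 named genes under other settings, 665 kept their side of the threshold, 114 lost their call and 35 gained one. No gene changed sign where it was called in either of the fits compared. Mmp12, not called in these fits, did change sign, at 0.8 as labelled and -0.7 without Jnk2 KO replicate 3.

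The replicate numbers mark no shared animal. Deviations of same-numbered arrays from their group means correlated at -0.08, 0.08 and 0.08. With 3 arrays a group, these values cannot show whether same-numbered arrays shared a day or a litter, and that was not tested. With the replicate number as a block 55 genes were called, 50 of the 82 among them, and 77 without Jnk2 KO replicate 3. With 3 arrays a group, changes near the array's background or under a doubling are the least well measured, and probes of close copies such as Saa1 and Saa2 can bind both.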

Other observations

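The 82 genes were spread over the chromosomes unevenly, a pattern noticed after the values were seen and given as a description. On chromosome 5, 13 of 1140 tested genes were called (1.14%), and on chromosome 6, 9 of 1099 (0.819%), against 0.411% of all genes; none of the 739 genes on the X chromosome was called with limma as labelled, and 1 was without Jnk2 KO replicate 3. Those on chromosome 5 include Abcb1b, Abhd1, Steap4, Gsap and Atraid. Without replicate 3 the counts were 11 (0.965%) on chromosome 5 and 12 (1.09%) on chromosome 6, against 0.607%, and chromosomes 14 (8 of 699, 1.14%) and 19 (7 of 675, 1.04%) were also above chromosome 5, so the order of the chromosomes differed between the settings. Some called genes are close neighbours. Abhd1 and Atraid, whose starts lie 98.6 kb apart in the RefSeq table, went opposite ways: Atraid read 9.73, 9.67 and 9.63 in NEMO f/f and 9.31, 9.11 and 9.24 in Jnk2 KO (-0.46, SE 0.08, limma adjusted p = 0.0254), and Abhd1 rose by 2.42.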
